A study of Rattus norvegicus with 8 samples.

Results

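The genes described are 47 factors that build ribosomes in the nucleolus, together with RNA polymerase I, the enzyme that transcribes ribosomal RNA. They were chosen by name for this function, with earlier results of these data known. Each was looked for among array probes designed to a rat RefSeq transcript. Of the 47, 39 had a probe with enough signal to be tested, out of 13460 genes tested in all. Gnl3l and Utp20 had a probe that did not pass the signal filter, and no RefSeq probe was matched for Nop14, Rrp12, Tsr1, Utp6, Wdr75 or Nhp2.

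Ribosome production starts with transcription of a long precursor RNA by polymerase I. Small nucleolar ribonucleoproteins (snoRNPs) modify this precursor, the small subunit processome cuts and folds the part that becomes the small subunit, and a second set of factors matures the large subunit. The whole pathway consumes much of a growing cell's energy, and many of its genes are known targets of the transcription factor Myc.

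RNA came from NR8383 cells, a rat alveolar macrophage line, kept for 4 h with zinc oxide (ZnO) at 4 µg/mL on 4 arrays or at 16 µg/mL on 4 arrays. The submitters describe biological replicates. By the labels, cells had 20 passages at the lower dose and 200 at the higher one. The doses were also on separate slides scanned separately, so the effects of dose, of slide or scan and of passage cannot be told apart. Untreated cells were not analysed here, and every difference is ZnO 16 minus ZnO 4 on the log2 scale. A level is the log2 signal minus the 75th percentile of its array, and n is 4 arrays per dose unless fewer are stated.

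The share of probes well above background ranged from 31.5% to 39.3% over the 8 arrays. Of 14 macrophage markers, 12 were well above background on all 8 arrays, and Adgre1 and Marco on none. Of the lists for other cells, 2 of 3 endothelial, 1 of 4 fibroblast, 0 of 6 epithelial, 0 of 3 lymphocyte and 0 of 3 granulocyte markers with a probe reached that on all 8. Among the macrophage markers, Spi1 differed by 0.81, Itgam by -0.52 and Cd68 by -1.74, all past the threshold. Of the markers of other cells, the endothelial Pecam1 differed by -1.08 (adjusted p = 0.000117) and the lymphocyte Cd3d, well above background on 7 arrays, by -1.22 (adjusted p = 0.00517). The part of cell state in the results below was not tested. In RNA from whole cultures, fewer cells of a kind and less RNA per cell cannot be told apart. An area covering 4.07% of the spots of ZnO 4 replicate 4 and 0.813% of those of ZnO 16 replicate 4 had low signal. Where the probe that stands for a described gene lay there, the value with these areas masked is given.

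Of the 39 tested genes, 13 were higher and 4 lower at 16 µg/mL (limma, Benjamini-Hochberg adjusted p under 0.05), and 22 did not pass. Over all 13460 genes 19.8% were higher and 21.9% lower, and over the 7982 with a gene symbol 23.5% were higher and 16.8% lower. The share of ribosome factors that passed in either direction was 43.6%, beside 41.7% of all genes and 40.3% of those with a symbol. By direction, 33.3% were higher and 10.3% lower. Ddx18, 1 of the 13, passed the signal filter only through the dose where it was high and so had to differ. Among the 38 above the filter at both doses, a limit added after seeing the data, 12 were higher and 4 lower (31.6% and 10.5%, beside 20.4% and 19.3% of 11512 genes). Those 11512 include genes without a symbol, as do the shares of all genes under other settings below. Shares over genes with a symbol were counted in the main fit only. Large subunit factors held most of the rises (8 of 16 tested), while 0 of 7 polymerase I genes rose. A wider list described below did not share that contrast. There 9 of 39 large subunit genes (23.1%) and 8 of 13 genes of polymerase I and its cofactors (61.5%) rose. These 13 include subunit genes named for polymerase II. The median difference of the 39 genes was 0.15, beside 0.00 over all genes and 0.08 over genes with a symbol. The 4 values of each dose did not overlap for 18 of the 39 genes (13 with ZnO 16 above, 5 below). Over all genes that share was 39.9% (18.5% above, 21.4% below), and over genes with a symbol 39% (22.1% above, 16.9% below).

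**Figure D1:**
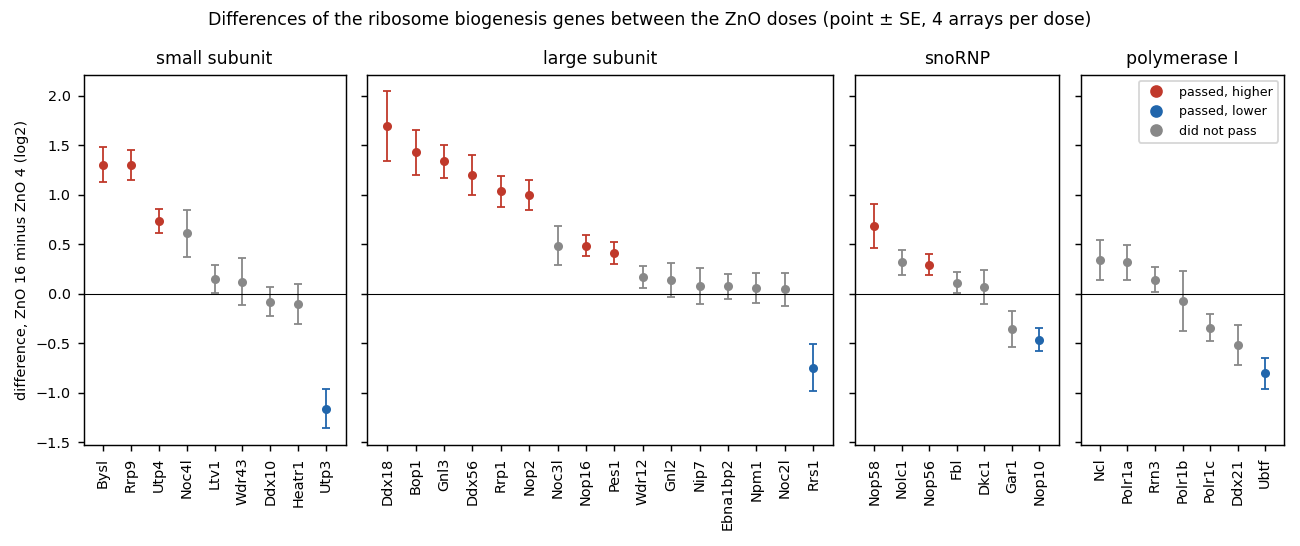
Difference between the doses for each of the 39 tested genes (points, log2, ZnO 16 minus ZnO 4) with its standard error (bars), grouped by role; red and blue mark genes that passed the threshold. Large subunit factors run from a fitted 1.69 for Ddx18, which was near background, to -0.75 for Rrs1, and Ubtf is the only polymerase I gene that passed.

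These counts depend on how arrays are set on a common scale. With scaling to spike-in probes, which read control RNAs added to each sample, the median of all genes was -0.73, and limma called 0 of the 39 genes higher and 6 lower (2 higher and 8 lower at an unadjusted p under 0.05). That is 15.4% lower, beside 34% of all genes lower and 1.84% higher with the same scaling. The 10 spike-in probes themselves differed between the doses by -0.68 to 1.62 after 75th percentile scaling, with a median of 1.17. Of these probes 7 were positive, and the value next above -0.68 was -0.21. Of the 39 genes, 35 had differences inside the spike-in range, including 13 of the 17 that passed. The share of all genes inside it was not counted, so this says nothing particular to the 39. The values below are relative to the 75th percentile of each array.

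Promoter sequence is shown for the rising genes that hold CACGTG, the E-box bound by Myc and related factors, and for the most changed falling factors of the small subunit and of polymerase I. Each is the 100 bases before the annotated start, from RefSeq on build GRCr8, written 5′ to 3′ on the gene's strand with the E-box in capitals.
Ddx18: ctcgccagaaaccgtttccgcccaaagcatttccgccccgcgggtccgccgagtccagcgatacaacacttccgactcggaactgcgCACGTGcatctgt
Gnl3: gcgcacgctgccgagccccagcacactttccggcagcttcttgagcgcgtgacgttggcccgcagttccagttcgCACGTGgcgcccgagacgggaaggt
Rrp1: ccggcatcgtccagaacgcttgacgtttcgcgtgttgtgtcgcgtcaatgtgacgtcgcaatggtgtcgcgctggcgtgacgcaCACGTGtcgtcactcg
Utp4: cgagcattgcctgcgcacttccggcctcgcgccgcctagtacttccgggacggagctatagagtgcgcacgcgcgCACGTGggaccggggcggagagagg
Pes1: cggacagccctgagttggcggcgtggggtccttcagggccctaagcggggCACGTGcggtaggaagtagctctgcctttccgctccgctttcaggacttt
Utp3: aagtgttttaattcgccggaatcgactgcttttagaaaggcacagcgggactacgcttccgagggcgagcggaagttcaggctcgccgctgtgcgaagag
Ubtf: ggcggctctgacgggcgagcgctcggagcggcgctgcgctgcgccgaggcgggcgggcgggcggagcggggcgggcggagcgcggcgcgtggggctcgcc
The windows are chr13:35295973-35296072 on the minus strand for Ddx18, chr16:6219783-6219882 on the minus strand for Gnl3 and chr20:10260480-10260579 on the plus strand for Rrp1. They are chr19:51702141-51702240 and chr14:83074246-83074345 on the plus strand for Utp4 and Pes1. Those of Utp3 and Ubtf are chr14:19801421-19801520 and chr10:87773089-87773188 on the minus strand.

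In the 250 bases before the start, CACGTG (read on both strands) was found in 9 of 43 ribosome genes with a promoter window, or 20.9%. The share was 6.18% of 27457 genes with a window and 8.76% of the 6698 of these that were tested. It was found in 5 of 12 rising genes (4 of 11 without Ddx18), 0 of 3 falling genes, 2 of 20 that did not pass and 2 of 8 not tested. In the printed windows the E-box began 13 bases before the start in Ddx18, 16 in Rrp1, 25 in Gnl3 and Utp4, and 50 in Pes1. These are matches of letters only. Myc itself fell from 1.49 ± 0.20 (SD) to -1.02 ± 0.13, a difference of -2.51 (SE 0.14, limma adjusted p = 8.08e-07), and its doses did not overlap.

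Among small subunit factors 3 of 9 tested rose and 1 fell. Bystin (Bysl), which acts late in small subunit maturation, stood at -0.03, 0.22, -0.13 and 0.49 on ZnO 4 replicates 1 to 4 and at 1.34, 1.64, 1.66 and 1.11 on ZnO 16 replicates 1 to 4. All ZnO 16 arrays lay above all ZnO 4 arrays, and the difference was 1.30 (SE 0.18, adjusted p = 0.000293), 2.47-fold. Rrp9, a protein of the U3 snoRNP that guides the first cuts of the precursor, stood at 1.15, 1.40, 1.13 and 1.30 and then at 2.39, 2.76, 2.80 and 2.24. Its doses were again apart, by 1.30 (SE 0.15, adjusted p = 9.96e-05). Utp4 belongs to the complex that first binds the precursor, and it went from -0.22, -0.22, -0.39 and -0.46 to 0.40, 0.52, 0.32 and 0.40. The rise of Utp4 was 0.73 (SE 0.12, adjusted p = 0.00101), with little spread at either dose.

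Utp3, a processome component, moved the opposite way. Its 4 values at the lower dose were -0.63, -0.94, -0.83 and -0.73, and those at the higher dose -1.50, -2.28, -2.21 and -1.77. Every ZnO 16 array was below every ZnO 4 array, and Utp3 was 2.23-fold lower (difference -1.16, SE 0.19, adjusted p = 0.00114). The 5 other tested factors did not pass. Noc4l, needed for export of the small subunit precursor, differed by 0.61 (SE 0.24, adjusted p = 0.0614), with ZnO 16 replicates 1 and 4 at 2.43 and 2.06 and replicates 2 and 3 at 3.15 and 3.22. Without ZnO 16 replicate 4 it passed (0.83, adjusted p = 0.00707), and between arrays of like overall brightness, 2 per dose, the Noc4l difference was 0.069 (adjusted p = 0.793). The late assembly factor Ltv1 differed by 0.15, the early-binding Wdr43 and Heatr1 by 0.12 and -0.10, and the helicase Ddx10 by -0.08.

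Large subunit factors gave the most rises, with 8 of 16 higher and 1 lower (7 of 15 higher without Ddx18). Gnl3, or nucleostemin, a GTPase of dividing cells, stood at 0.11, -0.36, -0.01 and -0.11 at 4 µg/mL and at 1.05, 0.99, 1.59 and 1.35 at 16 µg/mL. The gap between the doses was wider than the spread within either, and Gnl3 was 2.52-fold higher (difference 1.34, SE 0.17, adjusted p = 0.000172). Bop1, Pes1 and Wdr12 form the PeBoW complex, which is needed to process the precursor of the large subunit RNAs. Bop1 rose from 0.58, 0.99, 0.63 and 1.23 to 1.84, 2.58, 2.76 and 1.95, a difference of 1.43 (SE 0.23, adjusted p = 0.000907). Its partners moved less: Pes1 rose by 0.41 (SE 0.11, adjusted p = 0.0159) and Wdr12 differed by 0.17 (adjusted p = 0.255). Leaving out ZnO 4 replicate 1 ended the Pes1 call (0.37, adjusted p = 0.0526), as did testing without a signal filter (adjusted p = 0.0525). Part of the Pes1 spots lay in the low-signal area, with the difference still 0.41 when that was masked, and with outlier spots kept it was 0.69.

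The helicase gene Ddx18 was not well above background on any ZnO 4 array. Its signals were -4.40, -5.30, -4.26 and -5.12 there and -3.14, -3.17, -2.40 and -3.61 on the ZnO 16 arrays, where all 4 were well above background. Set against the lowest signal that counts as above background, Ddx18 was at least 2.79-fold higher (adjusted p = 0.00373). Since the filter kept it through the higher dose alone, this p is no support for a change. With normexp, a model-based background correction, the fitted difference of Ddx18 was 0.81 (log2). That is below the bound, which therefore depends on how the signals were processed. Its spot lay inside the low-signal area on ZnO 4 replicate 4, and with that masked the difference was 1.57. Other rises were those of the helicase gene Ddx56 (1.20), Rrp1 (1.03), the ribosomal RNA methyltransferase Nop2 (0.996) and Nop16 (0.48). Noc3l differed by 0.48 (adjusted p = 0.0709) although its doses did not overlap.

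Rrs1, which helps to bring the 5S particle into the large subunit precursor, was the 1 large subunit factor that fell. It stood at -2.37, -1.93, -2.66 and -1.82 at the lower dose and at -2.73, -3.28, -2.88 and -2.88 at the higher one. ZnO 4 replicate 3 lay just above ZnO 16 replicate 1, so the doses were only narrowly apart, and the difference was -0.75 (SE 0.23, adjusted p = 0.0269). Rrs1 no longer passed when ZnO 4 replicate 2 (-0.66, adjusted p = 0.0769), ZnO 4 replicate 4 (-0.62, adjusted p = 0.0678) or ZnO 16 replicate 2 (-0.63, adjusted p = 0.0622) was left out. It also failed with normexp, at -0.17 as fitted (adjusted p = 0.487) and -0.32 relative to all genes. The GTPase Gnl2 (0.13), Nip7 (0.08), Ebna1bp2 (0.07), the abundant nucleolar chaperone Npm1 (0.06) and Noc2l (0.05) did not pass.

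**Figure D2:**
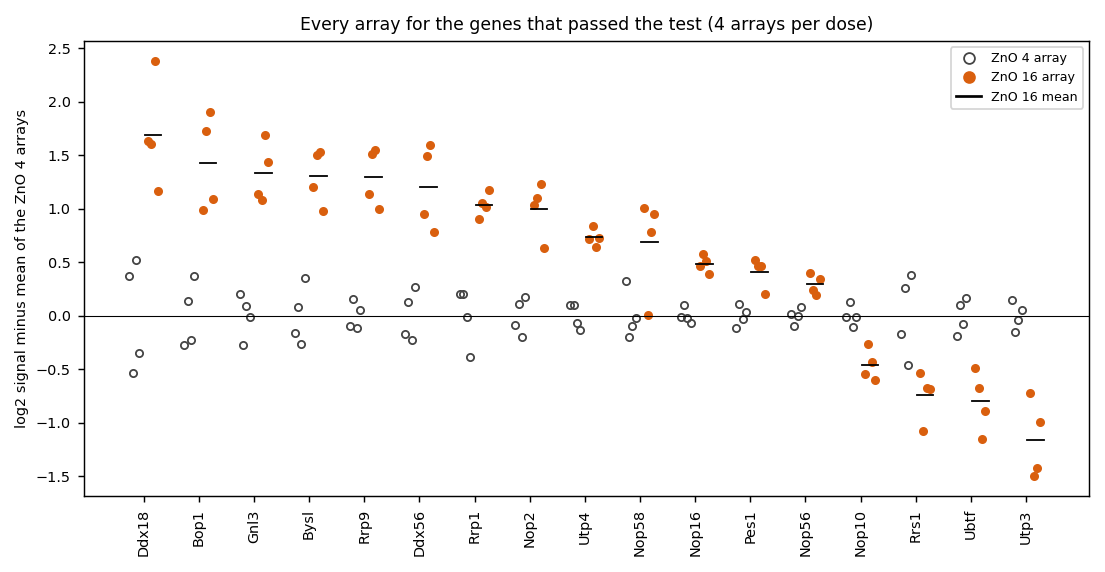
Signal on each of the 8 arrays for the 17 genes that passed, as log2 signal minus the mean of that gene's ZnO 4 arrays; open points are ZnO 4, filled points ZnO 16 and bars the ZnO 16 means. The doses do not overlap except for Nop58, where ZnO 16 replicate 2 lies among the ZnO 4 arrays.

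The snoRNP proteins showed small differences in both directions: of 7 tested, 2 rose, 1 fell and 4 did not pass. Box C/D snoRNPs place methyl groups on ribosomal RNA and contain Nop56, Nop58 and the methyltransferase fibrillarin (Fbl). Nop58 stood at -0.34, -0.87, -0.76 and -0.69 at 4 µg/mL and at 0.34, -0.66, 0.12 and 0.28 at 16 µg/mL. Its doses overlapped through ZnO 16 replicate 2, and the difference was 0.68 (SE 0.22, adjusted p = 0.0320). Nop56 went from 2.31, 2.20, 2.29 and 2.38 to 2.70, 2.53, 2.49 and 2.64. The Nop56 doses were narrowly apart, by 0.29 (SE 0.10, adjusted p = 0.0452). Fbl differed by 0.11 (adjusted p = 0.427).

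Both of these calls were near the threshold and were lost in most fits with 1 array left out. With 1 array left out, Nop58 passed when that was ZnO 4 replicate 1 or ZnO 16 replicate 2, and not for any of the other 6 (differences of 0.58 to 0.68, adjusted p of 0.0522 to 0.0826). Nop56 passed when it was ZnO 4 replicate 4, and not for any of the other 7 (0.26 to 0.33, adjusted p of 0.0512 to 0.120), and with normexp its difference was -0.02 relative to all genes.

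Box H/ACA snoRNPs convert uridine to pseudouridine and contain Dkc1, Gar1, Nop10 and Nhp2. Nop10, the smallest of these proteins, stood at 4.51, 4.65, 4.42 and 4.51 at 4 µg/mL and at 3.98, 4.26, 4.09 and 3.91 at 16 µg/mL. All ZnO 16 arrays were lower, and the difference was -0.46 (SE 0.12, adjusted p = 0.0103). With median scaling the Nop10 call was lost (-0.29, adjusted p = 0.0811), where the median of all genes was 0.17. Its partners Dkc1 (0.07) and Gar1 (-0.36) did not pass, nor did Nolc1 (0.32, adjusted p = 0.0640), a nucleolar chaperone of both snoRNP classes.

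Of the 7 polymerase I genes, limma called 0 higher and 1 lower, and 0 were higher at an unadjusted p under 0.05. Ubtf, the factor that keeps ribosomal RNA genes open and recruits the polymerase, stood at 1.62, 1.90, 1.72 and 1.97 at 4 µg/mL and at 1.31, 1.13, 0.65 and 0.91 at 16 µg/mL. All ZnO 16 arrays were below the ZnO 4 arrays, and Ubtf was 1.74-fold lower (difference -0.80, SE 0.16, adjusted p = 0.00285). The initiation factor Rrn3, which links polymerase I to growth signals, differed by 0.14 (adjusted p = 0.393). The polymerase subunits Polr1a (0.32), Polr1b (-0.08) and Polr1c (-0.34) did not pass, and Polr1c, shared with polymerase III, had doses that did not overlap (adjusted p = 0.0749). Nucleolin (Ncl), an abundant histone and RNA binding protein, differed by 0.34 (adjusted p = 0.193) on a probe with spots in the low-signal area, and by 0.31 with that masked. The helicase Ddx21, which acts in both transcription and processing, differed by -0.52 (adjusted p = 0.0606), and by -0.0014 (adjusted p = 0.995) between the arrays of like brightness.

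Probes to the same gene did not always give the same answer. Of 11 genes with several probes above the filter, 4 had all probes on the same side of the threshold and 7 did not, in a fit over 15572 probes of which 41.7% passed. The fall of Ubtf was seen on its brighter probe, and the other differed by -0.20 (adjusted p = 0.544). The second probe of Ddx56 differed by 0.45 (adjusted p = 0.0737) and that of Rrp1 by -0.06 (adjusted p = 0.820). Nop56 rose on both of its probes, by 0.29 and 0.56.

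Some genes counted above as not passing changed on a dimmer probe. Npm1 had 4 probes, which differed by 0.06, 0.28, 0.52 and 0.46, the last pair past the threshold (adjusted p = 0.0149 and 0.0480), and the probe at 0.46 had its spot in the low-signal area. Processed copies of Npm1 are known in mammalian genomes, and its probes may read them too. For Ncl the 3 differences were 0.34, 0.62 and -0.05, of which 0.62 passed (adjusted p = 0.0195). Ebna1bp2, a large subunit factor, gave 0.07 on its brighter probe and -1.09 on the other (adjusted p = 0.000261). The 3 probes of Ddx21 gave -0.52, 0.38 and -0.68, of which -0.68 passed (adjusted p = 0.0377).

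**Figure D3:**
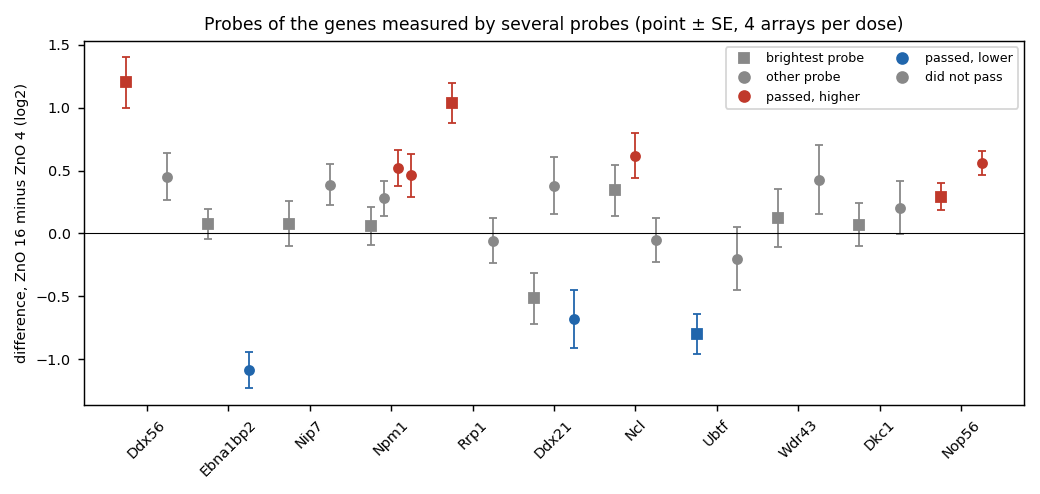
Difference between the doses (log2, ZnO 16 minus ZnO 4, with standard error) for each probe of the 11 genes measured by several probes; squares are the brightest probe, which stands for the gene in the counts, and circles the others. The probes of Ebna1bp2 (0.07 and -1.09) and Rrp1 (1.03 and -0.06) lie farthest apart.

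Overall brightness moved with part of the result. The log2 of the 75th percentile was 8.55 and 8.57 on ZnO 16 replicates 1 and 4, 7.24 and 7.57 on ZnO 16 replicates 2 and 3, and 8.29 to 9.01 on the ZnO 4 arrays. Bop1, Bysl, Rrp9 and Ddx56 were higher on the dimmer pair of ZnO 16 arrays than on the brighter pair. In a fit of ZnO 4 replicates 2 and 4 against ZnO 16 replicates 1 and 4, chosen after the values were seen for their like brightness, 11 of the 39 genes were higher and 5 lower (28.2% and 12.8%, beside 7.93% and 15.9% of all genes). In this fit of 2 arrays per dose the difference was 0.79 for Bop1, 0.66 for Ddx56, 0.87 for Bysl and 0.69 for Nop2, all past the threshold with adjusted p of 0.0208 to 0.0403. The part of brightness in these differences was not tested. Gnl3 stood at 1.43, Nop58 at 1.09, Utp3 at -0.81 and Ubtf at -0.82, again past it, while Nop16 (0.41), Pes1 (0.29) and Nop56 (0.38) were not. In that fit Ncl (0.70) and Polr1c (-0.60) passed.

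With normexp several differences had another size. That setting starts from median spot signals and adds an offset of 50, so it differs from the main fit in more than background correction. Relative to the median of all genes (0.15), the difference was 0.64 for Rrp9, 0.65 for Bop1, 0.37 for Utp4, 0.23 for Pes1 and 0.35 for Nop58. Each was smaller by over 1.5 times. That of Utp3 shrank to -0.70 and that of Nop10 grew to -0.71. Here and below, the threshold was applied to normexp differences as fitted, before this median was subtracted. As fitted these genes still passed, Pes1 at 0.38 (limma adjusted p = 0.0256) and Nop58 at 0.50 (adjusted p = 0.0430).

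**Figure D4:**
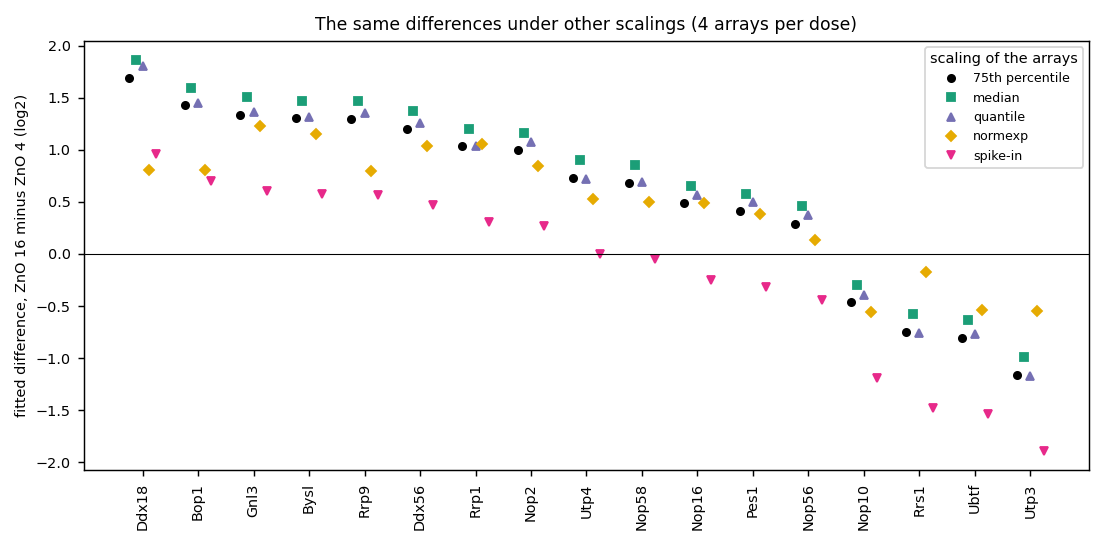
Fitted difference (log2, ZnO 16 minus ZnO 4) of the 17 genes that passed, under 5 settings, each with 4 arrays per dose. The normexp setting keeps 75th percentile scaling and changes the signal and its background correction. Spike-in scaling lowers each of the 17 against 75th percentile scaling, and Nop16, Pes1, Nop58 and Nop56 then lie below 0.

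A wider list of 132 other ribosome biogenesis genes also held changes in both directions. Of 106 tested, 28 were higher and 13 lower (26.4% and 12.3%). Over all genes those shares were 19.8% and 21.9%, and over genes with a symbol 23.5% and 16.8%. Of the 98 above the filter at both doses, 26 were higher and 9 lower (26.5% and 9.18%, beside 20.4% and 19.3% of 11512 genes). Among small subunit genes, 6 of 35 rose and 3 fell. The largest were the helicase genes Ddx47 (2.79, or 1.95 with the low-signal area masked) and Ddx49 (1.30) upward, and Wdr3 (-1.81) and Utp25 (-0.87) downward. Wdr3 was well above background on 2 of 4 ZnO 16 arrays, so its value there is uncertain. The filter kept Wdr3 through the lower dose alone, where it was high, so its call is no support for a change. With normexp, relative to all genes, Ddx47 stood at 1.63, Ddx49 at 0.64, Utp25 at -0.48 and Wdr3 at -0.58. As fitted, all of them still passed the threshold, with the same limit for Wdr3. Among large subunit genes, 9 of 39 rose, led by Pak1ip1 (1.27, or 1.08 masked) and Nle1 (1.15), and 4 fell. Bccip, not well above background at 16 µg/mL, was at least 2.74-fold lower, and Urb2, well above background on 1 of 4 arrays there, differed by -1.46. Both passed the filter only through the lower dose, and both calls were lost with normexp (adjusted p = 0.649 and 0.822).

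Among other genes of polymerase I and its cofactors, 8 of 13 were higher and 2 lower. Subunit genes named for polymerase II were counted here: Polr2e, Polr2h and Polr2k rose, while Polr2f and Polr2l did not pass. The Polr2e call was lost in 6 of 8 fits with 1 array left out, and that of Polr2h in 2. The subunit gene Polr1e rose by 1.64 (SE 0.22, adjusted p = 0.000261) and Taf1c, a subunit of the SL1 initiation factor, by 0.95 (SE 0.21, adjusted p = 0.00530). The subunit gene Polr1g fell by 1.03 (SE 0.16, adjusted p = 0.000759) and the deacetylase gene Sirt7 by 0.51 (SE 0.13, adjusted p = 0.00987). With normexp 6 of these 8 rises no longer passed (adjusted p of 0.0537 to 0.191), while Polr1e (0.65 relative to all genes) and Taf1c (0.76) did. Of 9 further snoRNP genes, Snu13 (0.57) and Pih1d1 (0.45) rose and Znhit6 (-0.65) fell. The Pih1d1 call was lost in 5 of 8 fits with 1 array left out, and that of Znhit6 with normexp (adjusted p = 0.183). Of 10 genes that trim ribosomal RNA, 3 rose and 3 fell. The exosome subunit genes Exosc2 (1.41, and also 1.41 masked) and Exosc5 (0.95) were among the rises. Exosc3 (-0.95) and Exosc7 (-0.59) were among the falls. The Exosc3 call, with 2 of 4 ZnO 16 arrays well above background, was lost with normexp (adjusted p = 0.985). Like Wdr3, Bccip and Urb2, Exosc3 passed the filter only through the lower dose.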

How the data were processed

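Labelled cRNA was hybridised to 1-colour Agilent arrays, 1 array per culture. The authors deposited scanner output (software Agilent Feature Extraction, version 11.0.1.1 by the submitters' processing notes). Its processed signal is a linear intensity, corrected for background and spatial trend per the file headers, with no normalization between arrays. Deposited 0 or 1 flags gave detection, saturation and outliers. Accessions were matched to a RefSeq table of assembly GRCr8 for names only.

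From log2 processed signals the 75th percentile of the array's non-control spots was subtracted. Outlier spots were dropped, a probe's spots averaged, and probes kept when well above background on at least 3 of 4 arrays of a dose; the brightest probe stood for its gene. No spot was saturated, and the number of arrays limits the precision. The doses were compared in R 4.3.3 by limma 3.58.1 (two-sided, eBayes with an intensity trend), with p-values adjusted by Benjamini-Hochberg over all 13460 genes at 0.05, and the fit was tested on simulated data. Low-signal areas are blocks of 16 rows and 8 columns whose median lay over 0.5 below the other arrays of that dose, a limit chosen after seeing the data.

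Every tested member was named. The 3 largest called differences per role and direction were given by array, and of the wider list the 2 largest. The members and lists were chosen with earlier results of these data known.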

Additional observations from a re-analysis of the deposited data

Results flagged for a closer look

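In 78 sets of 4 arrays of 1 dose (39 genes, 2 doses), 3 had an array far from the rest, where chance flags about 1 in 20. Polr1c stood at 3.89 on ZnO 4 replicate 2, where the other ZnO 4 arrays were 3.71 to 3.73. Heatr1 stood at -1.23 on ZnO 4 replicate 4, where the others were -1.72 to -1.67. Nolc1 stood at 2.95 on ZnO 4 replicate 2, where the others were 2.86 to 2.87.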

How the results depend on the processing

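Over the arrays left out in turn, 11 to 13 members were higher and 3 to 5 lower (28.2% to 33.3% and 7.69% to 12.8%). Over all genes these shares were 14.4% to 20.5% and 17.9% to 20.9%. Members called lower numbered 2 with median scaling (5.13%, beside 14.7% of all genes). Members called higher numbered 0 with spike-in scaling, beside 1.84% of all genes. With spike-in scaling all genes gave 247 higher and 4570 lower and the wider list 1 higher, and the differences as fitted were -0.25 for Nop16, -0.32 for Pes1, -0.046 for Nop58 and -0.44 for Nop56. The wider list had 5 lower with median scaling (4.72%, beside 14.7% of all genes) and 8 with normexp (7.55%, beside 14.8%). With arrays of like brightness it had 12 higher and 6 lower (11.3% and 5.66%, beside 7.93% and 15.9% of all genes). There all genes gave 1068 higher, and that fit holds fewer arrays. With the mean over probes Ebna1bp2 was -0.51 (adjusted p = 0.00713), since its probes disagree. For the other changes the cause was not tested. Of genes that did not pass, Ddx21 passed without ZnO 4 replicate 4, ZnO 16 replicate 1 or ZnO 16 replicate 4 (-0.60, -0.64 and -0.61), Nolc1 without ZnO 16 replicate 4 (0.41), and Ncl (0.51) and Polr1c (-0.43) without ZnO 16 replicate 2. Deviations of arrays with the same replicate number correlated at 0.247 and 0.404 in 2 pairs and at -0.221 and -0.0287 in the others. The numbers were therefore not taken to pair the arrays. With the number as a replicate block 13 members were higher and 4 lower (33.3% and 10.3%, beside 19.2% and 21.4% of all genes). In that fit the Nop56 call was lost (adjusted p = 0.0610) and Noc4l passed (0.0483). Without both arrays numbered 4, chosen after the data were seen, 13 members were higher and 4 lower (beside 21.9% and 19.9% of all genes). There the calls of Nop56, Nop58 and Rrs1 were lost while Ddx21, Noc4l and Nolc1 passed. Nop56 also failed with median scaling, no filter, outlier spots kept or no intensity trend, and Noc4l and Nolc1 passed with median scaling or quantile normalization. With normexp Noc4l (adjusted p = 0.0418) and Polr1c (-0.48 as fitted, adjusted p = 0.00645) passed. Noc3l passed among genes well above background on all arrays (adjusted p = 0.0476) and without an intensity trend (0.0337). The Rrs1 call was lost with median scaling (-0.58, adjusted p = 0.111) and with no filter (0.0711). With spike-in scaling Polr1c (-1.07) and Ddx21 (-1.25) passed. Ddx18 and Bccip, not well above background at 1 dose, have only a bound, and that holds for the processed signals only. Differences of other genes near background are uncertain.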

Other observations

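A second promoter motif, CCGGAAG (the core bound by ETS factors, read on both strands), was found in 19 of 43 ribosome genes (44.2%) in the 250 bases before the start, beside 18.3% of 6698 tested genes with a window. It was present in 5 of 12 rising genes, 1 of 3 falling genes and 10 of 20 that did not pass. The motif TCGCGA was found in 6 of 43 (14%), beside 5.02%. No 2 matches of different motifs overlapped in these windows.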
